A study of Mus musculus with 36 samples.

Results

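Bone morphogenetic proteins (BMPs) are secreted ligands that bind pairs of type I and type II serine/threonine kinase receptors on the cell surface, after which Smad1, Smad5 and Smad9 are phosphorylated and enter the nucleus with Smad4. Secreted antagonists such as gremlin, noggin and chordin hold the ligands away from these receptors. In mesenchymal stem cells (MSCs) the pathway is best known for driving osteoblast and cartilage differentiation, and its antagonists for restraining it. The 9 genes described here were 4 ligands (Bmp2, Bmp4, Bmp6 and Bmp7) and 5 secreted antagonists or modulators (Grem1, Nog, Chrd, Bmper and Fst). They were chosen by name, and all 9 were found among the 24411 genes of the expression files and were among the 12509 genes that could be tested.

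Cultured MSCs from 4 tissues of C57BL6/J mice, 8 weeks old, were compared. The tissues were femoral bone marrow (fBM-MSCs, 3 RNA-seq libraries), vertebral bone marrow (vBM-MSCs, 2 libraries), adipose tissue (A-MSCs, 3 libraries) and lung (P-MSCs, 3 libraries). No animal was treated or genetically altered according to the labels, and all cells were grown in the same medium with a Rock inhibitor for at most 3 passages, so the values describe plated cells and not the tissues. Marrow cells were released by crushing bone, whereas adipose and lung cells were released by collagenase, so between marrow and non-marrow MSCs tissue and way of isolation cannot be told apart. The 4 tissues came from the same 3 mice, but which library belongs to which mouse is not stated. ATAC-seq, which maps open chromatin by the insertion of Tn5 transposase, was represented by 1 pooled peak list for each tissue, made from 3 replicates.

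The libraries held 19569650 to 40517739 expected counts. The summed TPM (a transcript level scaled for transcript length and library size) of the MSC surface genes Itgb1, Cd44, Ly6a and Vcam1 was 983 to 2336 in every library. Of the genes that MSCs should lack, Ptprc was at most 0.350 TPM and Pecam1 at most 3.84 TPM, but Cd34 reached 10.2 to 79.2 TPM in the fBM-MSCs. The 2 vBM-MSC libraries differed from each other in several of the genes below, and results that rest on 1 of them are given with and without it.

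Sequences of open regions near the members are shown first, because the regions differ between tissues as described at the end of the gene accounts. The windows are 151 bases of mm10 centred on the strongest summit, printed 5′ to 3′ on the plus strand, and each is named by its distance from the transcription start (positive: into or beyond the gene). The last sequence holds the 250 bases before the start of Grem1, from RefSeq (GRCm38.p6), on the strand of the gene. Capitals mark matches to 5 short motifs, searched on both strands: the AP-1 letters TGANTCA, where N is any base, the RUNX letters TGTGGT, the GATA letters AGATAA with TGATAA as their second form, the TEAD letters GGAATG, and GGCGCC, a GC-rich element that BMP Smads can bind. A match on the other strand appears as its reverse complement, and no match printed here overlaps another. Windows were chosen, after their values were seen, from summits of at least 20-fold enrichment. The Grem1 start was chosen because a summit past the peak threshold lay within 1 kb of it in 2 of the 4 tissues. In the vBM-MSCs such a summit lay just outside, at +1.03 kb.
Bmp7 +33.92 kb, chr2:172906329-172906479: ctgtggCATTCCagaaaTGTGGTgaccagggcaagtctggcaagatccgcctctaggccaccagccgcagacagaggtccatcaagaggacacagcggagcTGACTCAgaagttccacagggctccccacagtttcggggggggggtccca
Grem1 -6.51 kb, chr2:113765083-113765233: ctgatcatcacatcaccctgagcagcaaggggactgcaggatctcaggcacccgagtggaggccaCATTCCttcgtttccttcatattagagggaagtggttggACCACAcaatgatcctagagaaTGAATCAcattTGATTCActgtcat
Grem1 -1.47 kb, chr2:113760042-113760192: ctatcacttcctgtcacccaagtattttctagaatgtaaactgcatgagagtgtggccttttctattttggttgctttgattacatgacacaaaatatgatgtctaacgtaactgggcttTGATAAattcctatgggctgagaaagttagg
Bmper +81.59 kb, chr9:23304589-23304739: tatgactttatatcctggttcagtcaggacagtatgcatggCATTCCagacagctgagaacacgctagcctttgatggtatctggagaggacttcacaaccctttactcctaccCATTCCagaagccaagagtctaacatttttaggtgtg
Bmper +88.19 kb, chr9:23311191-23311341: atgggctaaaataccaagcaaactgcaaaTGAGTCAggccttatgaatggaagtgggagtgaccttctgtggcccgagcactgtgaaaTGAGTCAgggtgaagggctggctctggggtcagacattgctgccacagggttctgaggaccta
Fst +11.60 kb, chr13:114447272-114447422: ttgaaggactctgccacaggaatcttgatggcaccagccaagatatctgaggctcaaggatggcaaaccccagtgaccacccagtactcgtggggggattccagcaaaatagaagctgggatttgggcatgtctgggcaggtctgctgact
Bmp6 +64.91 kb, chr13:38410552-38410702: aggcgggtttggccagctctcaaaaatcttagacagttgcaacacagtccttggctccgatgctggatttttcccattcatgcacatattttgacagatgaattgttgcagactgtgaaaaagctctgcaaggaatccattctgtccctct
Grem1 before its start, chr2:113758649-113758898: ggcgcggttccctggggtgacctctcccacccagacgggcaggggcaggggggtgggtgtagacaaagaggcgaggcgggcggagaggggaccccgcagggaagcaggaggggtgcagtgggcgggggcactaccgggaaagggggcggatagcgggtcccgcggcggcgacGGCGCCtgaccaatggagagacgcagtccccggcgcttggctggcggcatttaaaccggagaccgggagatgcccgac

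The window in Bmp7 held 1 match each to AP-1, RUNX and TEAD, and the Grem1 window at -6.51 kb held 2 AP-1 matches, 1 RUNX match and 1 TEAD match. The Grem1 window at -1.47 kb held 1 GATA match. Bmper had 2 TEAD matches at +81.59 kb and 2 AP-1 matches at +88.19 kb. The Fst and Bmp6 windows printed here held none of these letters. Other windows past the 20-fold limit are not printed. Of these, Bmp6 at +77.0 kb held 1 TEAD match, Chrd at -6.54 kb held 1 AP-1 match, and Bmper at +242.27 kb held no match. Such matches are common: among all summit windows of a tissue, 21% to 30% held the AP-1 letters, 13.2% to 17.9% the RUNX letters, 7.29% to 11.5% the GATA letters and 13.2% to 16% the TEAD letters. The single GGCGCC before Grem1 was a match that 9.59% of 32851 promoters of the same length also held.

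Levels of the members spanned a wide range. Grem1, Fst and Bmper made up 98.3% to 99.4% of the summed TPM of the 5 antagonists in every library, and Nog and Chrd stayed at or below 2.08 TPM. Bmp2 was the leading ligand of the fBM-MSCs, with 75.9% to 80.9% of the TPM of the 4 ligands. In the A-MSCs it held 10.2% to 20%. Of the 9 members, 6 differed among the 4 tissues (Bmp2, Bmp4, Bmp7, Grem1, Bmper and Fst) at an adjusted p under 0.05, where 60.6% of all tested genes did. Bmp7, among these 6, could be tested only through the fBM-MSCs, the group in which it was high. The other 3 (Bmp6, Nog and Chrd) did not pass.

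**Figure D1:**
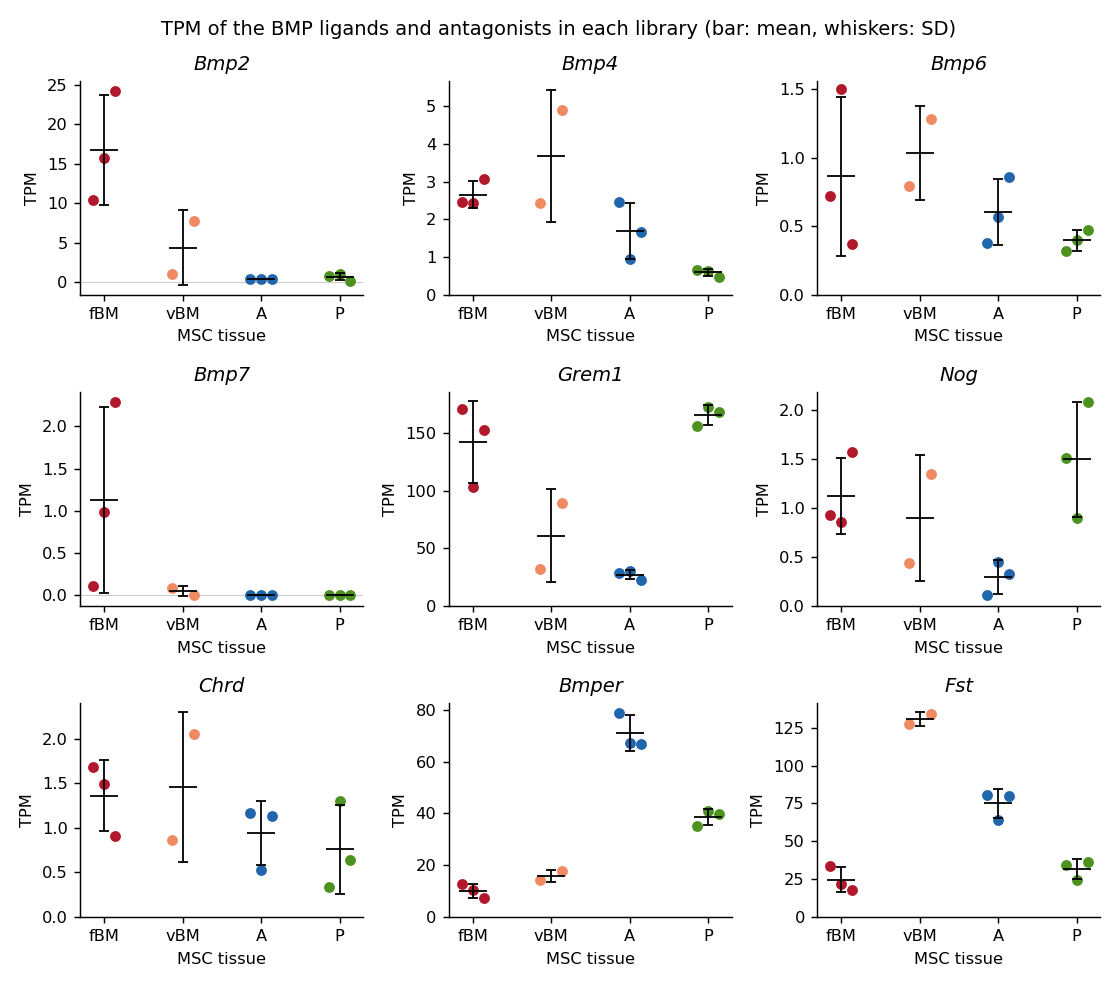
TPM (y axis) of each member in each library (points) of fBM-, vBM-, A- and P-MSCs (x axis), with the mean as a bar and the SD as whiskers. The highest means of Bmp2 and Bmp7 were those of the fBM-MSCs, of Bmper that of the A-MSCs and of Fst that of the vBM-MSCs, and Grem1 stood at 103 to 173 TPM in both fBM- and P-MSCs.

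Bmp2, a ligand with strong osteogenic activity, lies on chromosome 2 (mm10 133552159 to 133562896, plus strand, 3 exons). It measured 10.4, 15.7 and 24.2 TPM in the fBM-MSCs and 1.02 and 7.68 TPM in the vBM-MSCs. The A-MSCs had 0.32, 0.38 and 0.35 TPM and the P-MSCs 0.78, 1.02 and 0.17 TPM. All 3 fBM-MSC libraries lay above every other library, and the lower vBM-MSC library lay at the level of the highest P-MSC library. The order of the means was fBM-MSC (16.8 ± 6.98, SD, n = 3), vBM-MSC (4.35 ± 4.71, n = 2), P-MSC (0.657 ± 0.438, n = 3) and A-MSC (0.350 ± 0.0300, n = 3). In these bulk cultures, fewer cells that express a gene and less RNA per cell cannot be told apart.

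The fitted difference of Bmp2 between marrow and non-marrow MSCs (the mean of the 2 marrow tissues on the log2 scale minus the mean of the other 2) was 4.13 ± 0.52 (SE), a 17.5-fold higher level in marrow (adjusted p = 6.18e-05, edgeR quasi-likelihood test). It ranged from 3.16 (without vBM-MSC replicate 2) to 4.52 when each library was left out, and each of these 11 fits called it. fBM-MSCs exceeded A-MSCs by 45.5-fold (adjusted p = 0.000212) and P-MSCs by 27.7-fold (adjusted p = 0.000248). These folds are log2 differences of 5.51 and 4.79. Under the alternatives that keep all libraries of the tissues compared, they ran from 3.64 to 5.54 and from 3.38 to 4.82. The marrow difference then ran from 2.51 to 4.15, and all of these fits called the gene. The difference of fBM- from vBM-MSCs, 2.05 ± 0.73 on the log2 scale, did not pass (adjusted p = 0.0900), and neither did that of A- from P-MSCs (-0.72 ± 0.72, adjusted p = 0.480). Over the alternatives the adjusted p for fBM- against vBM-MSCs ran from 0.0111 to 0.320. The calls of vBM-MSCs over A-MSCs (11-fold) and P-MSCs (6.70-fold) rested on vBM-MSC replicate 2. Without it the log2 differences were 1.52 (adjusted p = 0.160) and 0.80 (adjusted p = 0.396), and that of fBM- from vBM-MSCs was 3.99 (adjusted p = 0.0111), the lone vBM-MSC library then being assumed to vary like the other groups. Without vBM-MSC replicate 1 the differences of vBM- from A- and P-MSCs were 4.25 (adjusted p = 0.00121) and 3.54 (adjusted p = 0.00155).

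Bmp4, a ligand closely related to Bmp2, lies on chromosome 14 (46383525 to 46390669, minus strand, 3 or 4 exons). Its level was 2.46, 2.43 and 3.06 TPM in the fBM-MSCs, 2.44 and 4.91 TPM in the vBM-MSCs, 2.45, 0.95 and 1.66 TPM in the A-MSCs and 0.66, 0.63 and 0.47 TPM in the P-MSCs. Every P-MSC library lay below all others, while the fBM-, vBM- and A-MSCs overlapped. Bone marrow exceeded non-bone marrow MSCs by 3.11-fold (log2 difference 1.64 ± 0.33, adjusted p = 0.00184). The P-MSCs were lower than the fBM-MSCs by 4.90-fold (adjusted p = 0.00186), than the vBM-MSCs by 6.46-fold (adjusted p = 0.00145) and than the A-MSCs by 3.27-fold (adjusted p = 0.0159). The last call was lost without A-MSC replicate 1 or without P-MSC replicate 3 (adjusted p = 0.0621 in both). The differences among the other 3 tissues did not pass. Summed adipocyte markers (5 genes, mostly Fabp4) were also lowest in the P-MSCs, at 2.68 to 3.84 TPM against 22.0 to 158 TPM elsewhere, with Adipoq, Plin1, Cidec and Lep at 0 in the P-MSCs and Lep at 0 in every library. Their part in the Bmp4 result was not tested. The genes Gm15217 and Gm15222 overlap Bmp4 on the opposite strand, and the libraries carry no strand, so reads of the overlap cannot be assigned.

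Bmp6, a ligand known for its part in iron regulation as well as in bone, lies on chromosome 13 (38345716 to 38500314, plus strand, 7 exons). It ranged from 0.37 to 1.5 TPM in the fBM-MSCs, from 0.79 to 1.28 TPM in the vBM-MSCs, from 0.38 to 0.86 TPM in the A-MSCs and from 0.32 to 0.47 TPM in the P-MSCs. All ranges overlapped except those of the vBM- and P-MSCs, and no pair of tissues passed the test. The largest fitted difference, of vBM- from P-MSCs, was 1.44 ± 0.72 on the log2 scale (adjusted p = 0.134). Txndc5 and 4930579J19Rik overlap this gene on the other strand.

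Bmp7, a ligand with roles in kidney and skeletal development, lies on chromosome 2 (172868012 to 172940321, minus strand, 7 exons). It was counted 5, 76 and 207 times in the fBM-MSCs, or 0.11, 0.99 and 2.29 TPM. The vBM-MSCs had 6 and 1 counts (0.09 and 0.01 TPM), and all 6 A- and P-MSC libraries had 0 counts. The lowest fBM-MSC library was thus close to the vBM-MSCs, and the spread within the fBM-MSCs was wide (1.13 ± 1.10 TPM, SD, n = 3). Bmp7 reached the filter for testing (a CPM of 1 in 2 libraries) only through fBM-MSC replicates 2 and 3, the group in which it was high. Against a floor of 3 counts over the group, the fBM-MSCs were at least 110.4-fold higher than the A-MSCs (adjusted p = 0.00763) and at least 126-fold higher than the P-MSCs (adjusted p = 0.00552). Without the filter the adjusted p were 0.00228 and 0.00153. Replicate 3 held 207 of the 288 fBM-MSC counts, and without it the bounds were 53.4-fold and 60.8-fold. Bmp7 was also called in bone marrow against non-bone marrow MSCs (adjusted p = 0.00545). That call was lost without vBM-MSC replicate 1 (adjusted p = 0.0726) and in limma-trend on log2(TPM + 1) (adjusted p = 0.0691), and without fBM-MSC replicate 2 or 3 the gene fell under the count filter and was not tested. The 7 counts of the vBM-MSCs (exact Poisson 95% interval 2.81 to 14.4, which covers counting error only) did not separate them from fBM-MSCs (adjusted p = 0.118), A-MSCs (adjusted p = 0.160) or P-MSCs (adjusted p = 0.117). In DESeq2 the differences from fBM-MSCs (adjusted p = 0.0332) and from P-MSCs (adjusted p = 0.0484) passed.

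Osteoblast genes followed the order of Bmp2 and Bmp7 within the fBM-MSCs, and of Bmp2 but not Bmp7 within the vBM-MSCs. The summed TPM of Bglap, Bglap2, Ibsp, Dmp1, Sp7 and Col1a1 was 1415, 2074 and 6132 in the fBM-MSCs, replicates 1 to 3, and 755 and 1489.5 in the vBM-MSCs. It was 542 to 775 in the A-MSCs and 501 to 565 in the P-MSCs, where Col1a1 alone averaged 677 and 529.6 TPM and the defining genes Sp7 and Ibsp were at most 0.160 and 0.0800 TPM. Within the vBM-MSCs, the library with 7.68 TPM of Bmp2 had 321 TPM of Ibsp and the library with 1.02 TPM had 16.9 TPM. Bmp7 went the other way there, with 1 count in the former and 6 in the latter. Summed chondrocyte markers (5 genes) were 15.8 to 99.0 TPM in the fBM-MSCs and 126 and 185 TPM in the vBM-MSCs, against 1.53 to 11 TPM in the A- and P-MSCs, with Acan at most 0.140 TPM and Matn1 at 0 in every library. Summed macrophage markers (8 genes) were 40.5 to 52.1 and 24.4 to 45.7 TPM in the fBM- and vBM-MSCs and 14.7 to 27.7 TPM in the A- and P-MSCs, with Adgre1 and Fcgr1 at 0 in every marrow library. Lyz2 was the largest part of the marrow sums (means of 27.0 and 29.2 TPM in fBM- and vBM-MSCs). Csf1r went the other way, averaging 0.740 and 0.885 TPM there against 5.90 and 2.54 TPM in A- and P-MSCs. Cd14 was highest in the P-MSCs (5.09 TPM), and Cd68 was lowest in the vBM-MSCs (1.80 TPM). The part of such cells in the Bmp2 and Bmp7 results was not tested.

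Grem1 encodes gremlin 1, a secreted antagonist of BMP2, BMP4 and BMP7, and lies on chromosome 2 (113748675 to 113758648, minus strand, 2 exons). Its level was 171, 103 and 153 TPM in the fBM-MSCs and 157, 173 and 168 TPM in the P-MSCs. It was 32.15 and 89.5 TPM in the vBM-MSCs and 28.5, 30.5 and 22.2 TPM in the A-MSCs. The fBM- and P-MSCs overlapped and lay above the other 2 tissues in every library. In the order P-MSC (166 ± 8.43, SD, n = 3), fBM-MSC (142 ± 35.4, n = 3), vBM-MSC (60.8 ± 40.5, n = 2) and A-MSC (27.1 ± 4.32, n = 3), the difference of the first 2 did not pass (log2 difference of fBM- from P-MSCs -0.08 ± 0.28, adjusted p = 0.826).

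The A-MSCs were lower in Grem1 than the P-MSCs by 5.34-fold (adjusted p = 0.000221) and than the fBM-MSCs by 5.03-fold (adjusted p = 0.000119). The vBM-MSCs were lower than the P-MSCs by 2.65-fold (adjusted p = 0.00586) and than the fBM-MSCs by 2.5-fold (adjusted p = 0.0236). The log2 difference of vBM- from P-MSCs, -1.41, was -0.91 without vBM-MSC replicate 1 (adjusted p = 0.0344) and -2.18 without vBM-MSC replicate 2 (adjusted p = 0.000468). The call against the fBM-MSCs was lost without vBM-MSC replicate 1 (log2 difference 0.82, adjusted p = 0.129), without fBM-MSC replicate 1 (1.14, adjusted p = 0.0507) and with these 2 tissues fitted alone (1.32, adjusted p = 0.150), and without vBM-MSC replicate 2 the log2 difference was 2.10 (adjusted p = 0.00186). The 2.01-fold excess of vBM- over A-MSCs (adjusted p = 0.0351) was called in 4 of the 11 fits without a library. Without vBM-MSC replicate 2 its log2 difference fell from 1.01 to 0.23 (adjusted p = 0.593), and leaving out any 1 A- or P-MSC library also ended the call (adjusted p 0.0513 to 0.108). One tissue of each class was high and the other low, and the difference of marrow from non-marrow MSCs did not pass (0.46 ± 0.21, adjusted p = 0.0924). Over the alternatives its adjusted p ran from 0.00450 to 0.741, and it passed in DESeq2 (adjusted p = 0.0451), without vBM-MSC replicate 1 (log2 difference 0.71, adjusted p = 0.00450) and without fBM-MSC replicate 2 (0.57, adjusted p = 0.0386).

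Bmper encodes a secreted protein with chordin-like repeats that binds BMPs and can weaken or strengthen their signal, and lies on chromosome 9 (23223076 to 23485215, plus strand, 15 exons). It measured 79.0, 67.4 and 66.9 TPM in the A-MSCs and 35.0, 40.8 and 39.8 TPM in the P-MSCs. The vBM-MSCs had 14.2 and 17.6 TPM and the fBM-MSCs 12.5, 10.4 and 7.16 TPM. No 2 tissues overlapped. Bone marrow was 4.14-fold lower than non-bone marrow MSCs (log2 difference -2.05 ± 0.14, adjusted p = 6.91e-07), with values from -2.16 to -1.95 when each library was left out. The A-MSCs exceeded the fBM-MSCs by 7.47-fold (adjusted p = 1.36e-06), the vBM-MSCs by 4.85-fold (adjusted p = 3.34e-05) and the P-MSCs by 2.11-fold (adjusted p = 0.00101). The P-MSCs exceeded the fBM-MSCs by 3.54-fold (adjusted p = 1.08e-05) and the vBM-MSCs by 2.30-fold (adjusted p = 0.000683). The difference of fBM- from vBM-MSCs, -0.62 ± 0.19 on the log2 scale, did not pass (adjusted p = 0.0542), and it passed in 5 of 19 alternatives (adjusted p from 0.00795 to 0.236).

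Markers of mesothelium, muscle and endothelium were higher in the A- and P-MSCs, as Bmper was. The summed TPM of 8 mesothelial markers was 81.6 to 97.2 in the A-MSCs, 54.8 to 64.0 in the P-MSCs, 9.26 to 12.3 in the vBM-MSCs and 1.84 to 11.1 in the fBM-MSCs. All 8 were above 0 in the A-MSCs, whereas Wt1, Lrrn4 and Gpm6a were at 0 in the other tissues. Wt1, which defines mesothelium, was 10.6 to 14.9 TPM in the A-MSCs, and Krt19 averaged 54.9 ± 4.32 TPM of the sum in the P-MSCs. The sum of 5 muscle markers was 1035 to 1273, 716 to 785, 55.7 to 496 and 9.24 to 20.5 TPM in the A-, P-, vBM- and fBM-MSCs, mostly Acta1, with the defining Myod1 and Myog at 0 in every library. The sum of 6 endothelial markers was 55.3, 7.6 and 3.40 TPM in the A-MSCs and 8.29, 7.77 and 2.55 TPM in the P-MSCs, against at most 1.19 TPM in any marrow library. Of these, Cdh5, which defines endothelium, was at most 1.05 TPM in the A-MSCs and 0.0800 TPM in the P-MSCs. Their part in the Bmper result was not tested.

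Fst encodes follistatin, which binds activins most tightly and also several BMPs, and lies on chromosome 13 (114452262 to 114458951, minus strand, 6 exons). It was 128 and 134 TPM in the vBM-MSCs, 80.7, 64.0 and 80.2 TPM in the A-MSCs, 34.0, 24.1 and 36.3 TPM in the P-MSCs and 33.7, 21.6 and 18 TPM in the fBM-MSCs. The vBM-MSCs lay above every other library, the A-MSCs came next, and the P- and fBM-MSCs overlapped. The 2 marrow sites differed by 5.19-fold (log2 difference of fBM- from vBM-MSCs -2.38 ± 0.26, adjusted p = 0.000253). The vBM-MSCs exceeded the P-MSCs by 4.4-fold (adjusted p = 7.18e-05). The A-MSCs exceeded the fBM-MSCs by 3.21-fold (adjusted p = 0.000223) and the P-MSCs by 2.72-fold (adjusted p = 0.00106). The 1.62-fold excess of vBM- over A-MSCs did not pass (adjusted p = 0.0640), and it passed in 8 of 19 alternatives (adjusted p from 0.0112 to 0.189). The difference of marrow from non-marrow MSCs did not pass either (0.23 ± 0.17, adjusted p = 0.301).

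Smooth muscle markers were lowest in the fBM-MSCs, as Fst was by its mean. The summed TPM of 4 of them (Acta2, Tagln, Cnn1 and Myh11) was 1069.9 to 1464 in the fBM-MSCs, 4508 to 5230.1 in the P-MSCs, 6186 to 7708 in the vBM-MSCs and 12156 to 12659 in the A-MSCs. None of the 4 was at 0 in any tissue, and Myh11, which defines smooth muscle, was at most 0.10 TPM in the fBM-MSCs, 0.790 TPM in the vBM-MSCs, 5.05 TPM in the P-MSCs and 8.38 TPM in the A-MSCs. Grem1 was lowest in the A-MSCs, where the sum was highest. The part of these markers in the Fst and Grem1 results was not tested.

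Nog, the single-exon gene of noggin, which wraps BMP dimers and blocks both receptor faces, lies on chromosome 11 (89300638 to 89302559, minus strand). It was 0.93, 0.86 and 1.57 TPM in the fBM-MSCs, 0.44 and 1.35 TPM in the vBM-MSCs, 0.11, 0.45 and 0.32 TPM in the A-MSCs and 1.51, 0.90 and 2.08 TPM in the P-MSCs. The A-MSCs were the lowest, with 1 library just above the lower vBM-MSC library. The gene did not pass among the 4 tissues (adjusted p = 0.102), but it did in both limma-trend fits (adjusted p = 0.0226 and 0.0168). Its difference of fBM- from A-MSCs did not pass (adjusted p = 0.0609, edgeR). That difference passed in DESeq2 (adjusted p = 0.0304) and in both limma-trend fits (adjusted p = 0.0307 and 0.0183). The A-MSCs were 4.35-fold lower than the P-MSCs (adjusted p = 0.0434), a call that 8 of the 11 fits without a library ended.

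Chrd encodes chordin, which binds BMPs through cysteine-rich repeats and is cut by tolloid proteases to release them, and lies on chromosome 16 (20733127 to 20742384, plus strand, 23 or 24 exons). It ranged from 0.91 to 1.68 TPM in the fBM-MSCs, from 0.86 to 2.05 TPM in the vBM-MSCs, from 0.53 to 1.2 TPM in the A-MSCs and from 0.33 to 1.30 TPM in the P-MSCs. All 4 tissues overlapped, and no difference passed the test (adjusted p = 0.405 among the 4 tissues). Thpo overlaps Chrd on the opposite strand. The annotated Gm40010, LOC115487292 and Gm41074, which overlap Bmp7, Bmper and Fst, are not among the genes counted.

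The mean of the 2 marrow tissues differed from that of the 2 non-marrow tissues in 4 of the 9 members, where 47.2% of all tested genes did. Bmp2, Bmp4 and Bmp7 were higher in marrow, as were 24.8% of all genes, and Bmper was lower, as were 22.4%. Bmp4 did not pass between A-MSCs and fBM- or vBM-MSCs (adjusted p = 0.318 and 0.163, edgeR). Bmp7 did not pass between vBM-MSCs and A- or P-MSCs (adjusted p = 0.160 and 0.117, edgeR). Bmp7 reached the filter only through fBM-MSC replicates 2 and 3, and its marrow call was lost in limma-trend on log2(TPM + 1) (adjusted p = 0.0691). The median log2 difference of the 9 members was 0.72, against 0.03 for all tested genes. Between the 2 marrow sites 2 members were called (Grem1 higher and Fst lower in fBM-MSCs), against 12.8% of all genes. Between A- and P-MSCs 5 members were called, against 30.9%, with Bmp4, Bmper and Fst higher and Grem1 and Nog lower in A-MSCs.

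For the 4 pairs of 1 marrow and 1 non-marrow tissue, the counts were as follows. fBM-MSCs differed from A-MSCs in 5 members (3 higher) and from P-MSCs in 4 members (3 higher), where 40.9% and 47.7% of all genes were called. vBM-MSCs differed from A-MSCs in 3 members (2 higher) and from P-MSCs in 5 members (3 higher), where 25.6% and 38.7% were called. These pairs share libraries, so the counts are not independent of each other. Bmp7, counted in both pairs with fBM-MSCs, reached the filter only through that tissue.

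**Figure D2:**
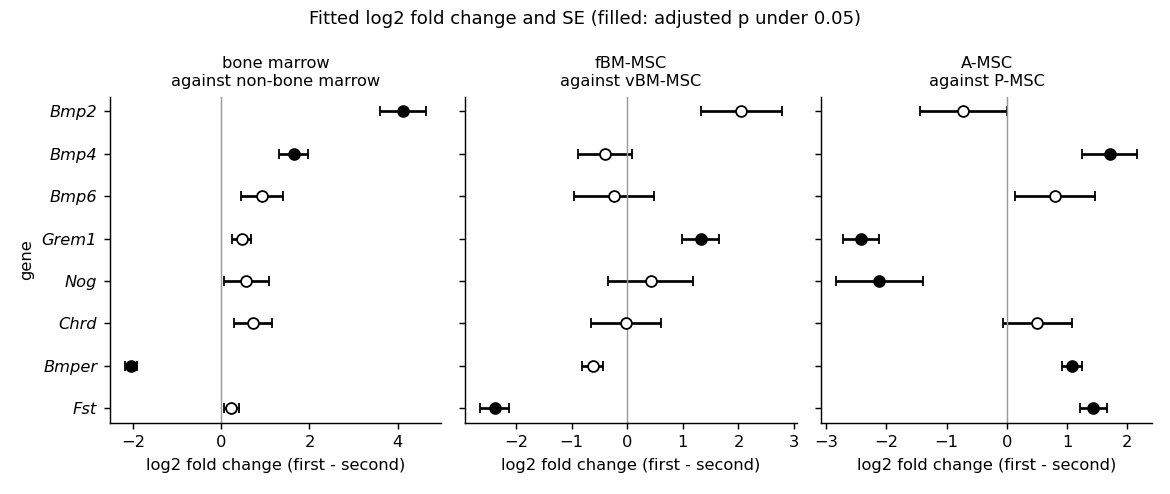
Fitted log2 fold change (x axis, first group minus second) with its SE (whiskers) for 8 members in 3 comparisons, filled where the adjusted p was under 0.05. Bmp7 is left out because the A- and P-MSCs held no counts. Bmp2 (4.13) and Bmper (-2.05) had the largest differences between marrow and non-marrow MSCs among these 8, and Fst (-2.38) between the marrow sites.

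Summed over the 4 ligands, the level was 13.7, 20.6 and 29.9 TPM in the fBM-MSCs, 4.34 and 13.9 TPM in the vBM-MSCs, 1.90 to 3.15 TPM in the A-MSCs and 1.11 to 2.05 TPM in the P-MSCs. Marrow libraries were all above the non-marrow libraries. Summed over the 5 antagonists, it was 137 to 220.0 TPM in the fBM-MSCs, 175 and 244 TPM in the vBM-MSCs, 163 to 189.5 TPM in the A-MSCs and 227 to 247 TPM in the P-MSCs. Transcripts of these 5 antagonists outnumbered those of these 4 ligands in every library. The ratio was 6.04 to 16.1 in the fBM-MSCs, 17.6 and 40.4 in the vBM-MSCs, 59.5 to 85.8 in the A-MSCs and 117 to 223 in the P-MSCs, and these ranges did not overlap. The ratio is a description of RNA levels of these 9 genes, and its order of tissues holds for this choice of ligands. Ligands outside the sum, such as Gdf6 (15.2 to 24.2 TPM in the A-MSCs) and the activin gene Inhba (means of 248 to 586 TPM), would change it. The ratio was not tested and gives no protein ratio.

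**Figure D3:**
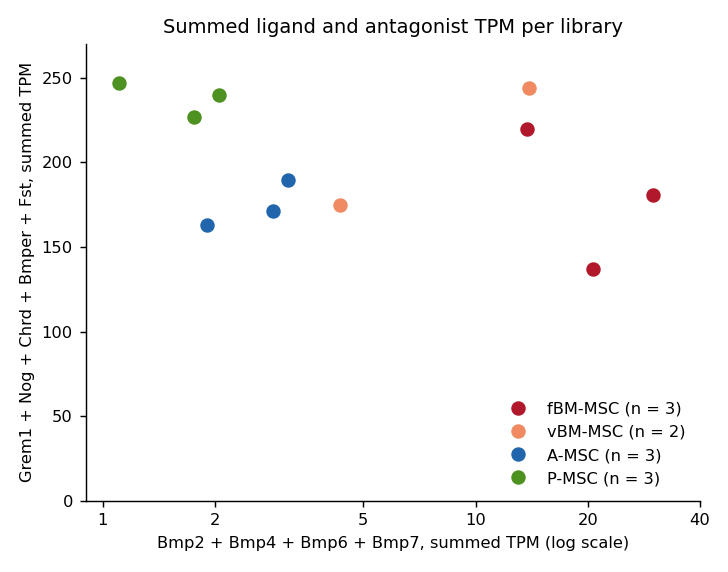
Summed TPM of Bmp2, Bmp4, Bmp6 and Bmp7 (x axis, log scale) against that of Grem1, Nog, Chrd, Bmper and Fst (y axis, linear from 0), 1 point per library. Ligand sums ran from 1.11 to 29.9 TPM, while antagonist sums kept between 137 and 247 TPM.

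The genes whose pattern over the 11 libraries was most like that of a member are named by Pearson's r on log2(TPM + 1), without a test, since libraries of a tissue share its level. For Bmp2 these were Dmp1 (r = 0.993), a bone matrix protein of osteocytes, Gpc1 (0.989) and Dlx5 (0.989), a transcription factor of the osteoblast lineage. For Bmp7 they were Dlx6 (0.992), Ip6k3 (0.991) and Dlx6os1 (0.989). Bmp4 was nearest to Agt (0.971), Ablim1 (0.960) and Epas1 (0.957), and Bmp6 to Chmp7 (0.934), Ncstn (0.904) and Tcf25 (0.897). Among the antagonists, Grem1 was nearest to Cbx6 (0.983), Arhgap22 (0.971) and Dst (0.968), and Bmper to Cndp2 (0.987), Rab3ip (0.984) and Lbh (0.982). Fst was nearest to Clcf1 (0.973), Sdc4 (0.970) and Coq10b (0.951). For Nog the closest was Bptf (0.956) and for Chrd Ghdc (0.921).

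Chromatin at the members was open at most promoters in every tissue. A MACS2 summit with a −log10 q of at least 7 lay within 1 kb of the start of 6 members in the fBM-MSCs, 6 in the vBM-MSCs, 8 in the A-MSCs and 8 in the P-MSCs. Over 22127 genes the share was 52.2%, 53.2%, 54.3% and 53.3%. Bmp2, Bmp6, Nog, Chrd and Bmper had such a summit in all 4 lists and Bmp4 in none. Since the lists are pooled and the number of reads behind each is not given in the sources used here, heights are set side by side without a test.

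The Bmp7 start had a summit past the threshold in the vBM-, A- and P-MSCs (7.358-, 6.622- and 9.196-fold enrichment) and one of 4.782-fold under it in the fBM-MSCs. The opposite was seen in its intron, 33.92 kb into the gene. There the fBM-MSCs had a 20.97-fold summit, the vBM-MSCs one of 4.047-fold under the threshold, and the A- and P-MSCs none. The fBM-MSCs, the tissue with most Bmp7 counts, thus had the strongest intronic summit and no start summit past the threshold.

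At Grem1 the P-MSCs had the strongest summits. The one at -6.51 kb, before the start, was 25.01-fold in the P-MSCs, 20.23-fold in the fBM-MSCs, 16.19-fold in the A-MSCs and 7.726-fold in the vBM-MSCs. The one at -1.47 kb was 23.91-fold in the P-MSCs, 12.51-fold in the A-MSCs, 10.3-fold in the vBM-MSCs and, under the threshold, 3.679-fold in the fBM-MSCs. Past the threshold only the P-MSCs had summits 12.71 to 14.82 kb beyond the start, and no other list had a summit within 500 bp of these 4. Within 1 kb of the start, summits past the threshold lay at +0.66 and +0.9 kb in the A-MSCs and at +0.06 and +0.91 kb in the P-MSCs. The vBM-MSCs had one at +1.03 kb, just outside this window, of the same height (7.726-fold) as that of the A-MSCs at +0.9 kb.

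The lists held 64300, 59536, 71345 and 64057 summits past the threshold in the fBM-, vBM-, A- and P-MSCs. The Bmper locus held 16 summits in the fBM-MSCs, 12 in the vBM-MSCs, 29 in the A-MSCs and 24 in the P-MSCs. In the intron 81.59 kb into the gene the fold enrichment was 33.48 in the A-MSCs and 33.84 in the P-MSCs, against 8.093 in the fBM-MSCs and 8.094 in the vBM-MSCs. At +88.19 kb it was 19.87 and 23.91 in the A- and P-MSCs, against 10.67 and 6.255 in the fBM- and vBM-MSCs. Some intronic summits were strongest in the fBM-MSCs. At +237.84 kb the fold was 19.86 in the fBM-MSCs, 10.3 in the vBM-MSCs, 12.14 in the A-MSCs and 4.782, under the threshold, in the P-MSCs. At +184.58 and +234.18 kb it was 8.829 and 8.093 in the fBM-MSCs, and the P-MSCs had no summit. The region at the Bmper start was open in all 4 tissues (8.093, 11.77, 16.92 and 16.92 in fBM-, vBM-, A- and P-MSCs).

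At Fst, the summit 11.60 kb from the start, beyond the end of the gene, was 24.28-fold in the fBM-MSCs, 13.98-fold in the vBM-MSCs, 7.357-fold in the P-MSCs and, under the threshold, 4.415-fold in the A-MSCs. This order was not that of the RNA, which was lowest in the fBM-MSCs. The Fst start passed the threshold in 3 lists and had a 5.151-fold summit under it in the vBM-MSCs, the tissue with most Fst RNA.

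**Figure D4:**
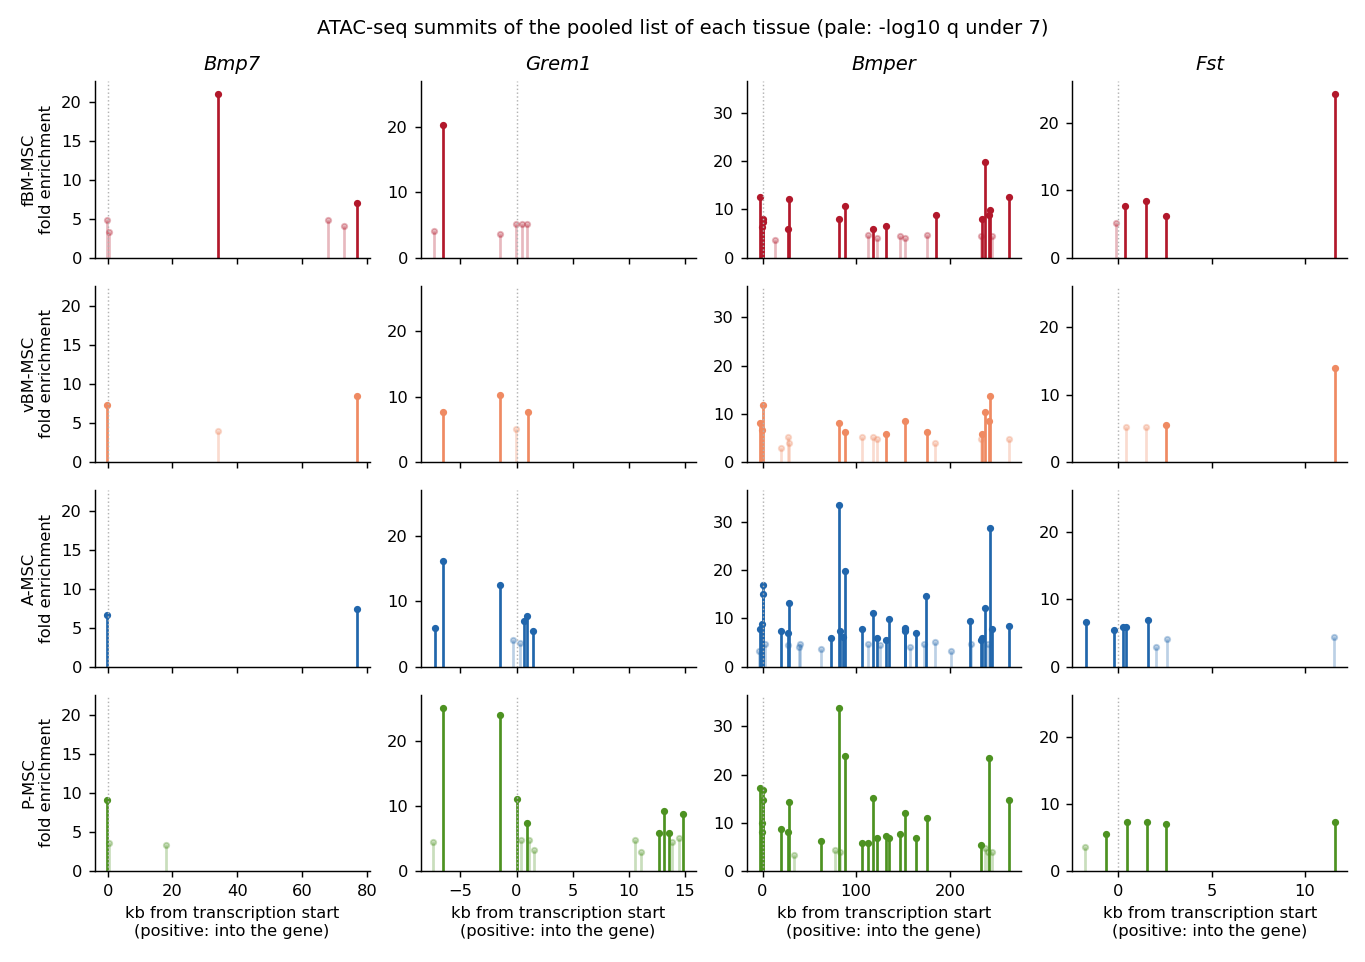
Fold enrichment (y axis, linear from 0) of each summit by its distance from the transcription start in kb (x axis) at Bmp7, Grem1, Bmper and Fst, with 1 row per tissue and pale stems for a −log10 q under 7. The intron of Bmp7 stood at 20.97 in fBM-MSCs and at 4.047 (pale) in vBM-MSCs, and the tallest summit in Bmper at 33.48 in A-MSCs and 33.84 in P-MSCs.

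Among the members whose RNA did not pass, the Bmp6 intron at +64.91 kb was 33.85-fold in the A-MSCs, 27.96-fold in the P-MSCs, 18.4-fold in the vBM-MSCs and 8.829-fold in the fBM-MSCs. Nog had 2 summits in the fBM-MSCs, 3 in the vBM-MSCs, 5 in the A-MSCs and 7 in the P-MSCs, none above 10.3-fold. The strongest summit within 10 kb of Chrd, 26.85-fold in the P-MSCs and 6.99-fold in the fBM-MSCs, lay at -6.54 kb in an intron of another gene, with the start of Thpo the nearest. Bmp2 had an 8.093-, 6.255-, 6.99- and 7.725-fold summit at its start in the fBM-, vBM-, A- and P-MSCs, so that the heights were close while the RNA differed. At Bmp4 the strongest summit, 9.565-fold in the fBM-MSCs, lay 3.30 kb into the gene, within 1 kb of the start of Gm15222.

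In all, the 9 loci (each gene and 10 kb on both sides) held 42, 35, 67 and 59 summits in the fBM-, vBM-, A- and P-MSCs. Those with no summit of another tissue within 500 bp numbered 0, 0, 4 and 4, which was 5.97% of the A-MSC and 6.78% of the P-MSC summits. Over all summits the shares were 7.92% in fBM-, 3.99% in vBM-, 4.15% in A- and 3.54% in P-MSCs. Of the 4 in the P-MSCs all lay beyond Grem1, and of the 4 in the A-MSCs 3 lay in Bmper and 1 in Bmp6.

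Other genes of the pathway were counted by role. Over all tested genes 60.6% differed among the 4 tissues, and 24.8% were higher and 22.4% lower in bone marrow, with a median log2 difference of 0.03. The counts below cover genes past the filter, which a gene high in 1 tissue can pass through that tissue alone. Of 19 other ligands 11 could be tested and 8 differed among the 4 tissues. In bone marrow against non-bone marrow MSCs 6 were higher and 0 lower, with a median log2 difference of 1.77. This contrast averages log values over tissues, so that Inhbb, highest in the A-MSCs (13.8 ± 1.02 TPM) and near 0 in the P-MSCs (0.0467 ± 0.0635 TPM), counted among the 6. Bmp3, a ligand that can oppose other BMPs, averaged 12.4 ± 10.8 TPM (SD, n = 3) in the fBM-MSCs and 0.445 ± 0.629 TPM (n = 2) in the vBM-MSCs, and was at most 0.0400 TPM in the other tissues. Bmp5 averaged 8.81 ± 7.71 TPM and Bmp8a 8.95 ± 6.93 TPM in the fBM-MSCs, against at most 0.480 and 1.26 TPM in any A- or P-MSC library. In the vBM-MSCs they were 0.240 and 2.15 TPM, and 0.60 and 3.07 TPM. Of these 3 ligands, Bmp3 passed between fBM- and vBM-MSCs (adjusted p = 0.0320), and Bmp5 and Bmp8a did not (adjusted p = 0.151 and 0.0523). Osteoblast genes, whose sums stand beside Bmp2, were also higher in every fBM-MSC library than in the A- and P-MSCs, and their part in these ligands was not tested. Gdf6, a growth and differentiation factor of joints, went another way, with 15.2 to 24.2 TPM in the A-MSCs and at most 1.18 TPM elsewhere.

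Of 18 other extracellular modulators 10 were tested and 8 differed among the tissues (60.6% of all genes did). In bone marrow 4 were higher and 2 lower (24.8% and 22.4% of all genes), and the median log2 difference was 0.36. Tll1, a protease that cuts chordin, was 65.4 to 78.2 TPM in the P-MSCs, 11.2 to 17.5 TPM in the A-MSCs and at most 6.18 TPM in marrow (log2 difference of marrow from non-marrow -2.87 ± 0.22, adjusted p = 1.92e-06). Chrdl1, a chordin-like antagonist, was 2.36 to 11 TPM in the fBM-MSCs and 1.44 and 4.99 TPM in the vBM-MSCs, and at most 0.230 TPM in A- and P-MSCs. Twsg1, which helps chordin bind BMPs, was 48.4 to 65.6 TPM in marrow and 18.2 to 30.3 TPM in A- and P-MSCs (adjusted p = 9.94e-06). Crim1, a membrane protein that tethers BMPs, was lower in fBM-MSCs (4.20 ± 1.37 TPM) than in the other 3 tissues, which averaged 10.2 to 11.7 TPM.

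Of 15 receptors and co-receptors 13 were tested and 8 differed among the tissues, near the 60.6% of all genes, with 4 higher and 4 lower in bone marrow and a median log2 difference of -0.14. The type I receptor Acvr1 was highest in the vBM-MSCs (23.5 ± 1.32 TPM, against means of 6.89 to 9.46 TPM elsewhere). Acvrl1, a type I receptor best known in endothelium, was 45.3 to 51.1 TPM in the P-MSCs and 1.44 to 7.52 TPM in the fBM-MSCs, and Bmpr1b averaged 5.20 and 1.97 TPM in the same tissues. The co-receptors Eng and Tgfbr3 went opposite ways, Eng being higher in marrow (0.96 ± 0.16 on the log2 scale, adjusted p = 0.000410) and Tgfbr3 lower (-1.29 ± 0.13, adjusted p = 1.21e-05). Eng averaged 85.5 TPM in the vBM-MSCs, 50.5 TPM in the fBM-MSCs, 43.0 TPM in the A-MSCs and 26.1 TPM in the P-MSCs, and its difference of fBM- from A-MSCs did not pass (adjusted p = 0.579). Bmpr1a, the main type I receptor for BMP2 and BMP4, averaged 11.4 to 16.3 TPM and did not pass among the 4 tissues (adjusted p = 0.0695).

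Of the 8 Smads and intracellular regulators, 3 differed among the tissues (Smad6, Smad9 and Smurf2), a share below the 60.6% of all genes, 2 were higher and 0 lower in bone marrow, and the median was 0.29. Smurf2, a ubiquitin ligase that acts on Smads and receptors, was highest in the fBM-MSCs (30.7 ± 5.13 TPM) and averaged 12.3 to 17.4 TPM elsewhere. Smad6, an inhibitory Smad, was lowest in the A-MSCs (1.07 ± 0.0252 TPM). The signal carriers Smad1 and Smad5 did not pass (adjusted p = 0.258 and 0.0846).

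Of 12 target genes of BMP signalling 10 differed among the tissues, where 60.6% of all genes did. In bone marrow 5 were higher and 1 lower, where 24.8% and 22.4% of all genes were, and the median was 0.26. Sp7 is also among the osteoblast markers summed beside Bmp2, and the part of such cells in the target genes was not tested. The osteoblast factors Sp7 and Dlx5 were 10.1 to 64.3 and 9.09 to 44.3 TPM in the fBM-MSCs, 2.62 and 9.71 and 0.27 and 5.97 TPM in the vBM-MSCs, and at most 0.160 TPM in the other tissues. Id1 and Id3, which respond directly to BMP Smads in many cells, were expressed in every tissue: Id1 averaged 139 to 277 TPM and Id3 607 to 1061 TPM, lowest in the A-MSCs and highest in the P-MSCs for both. Neither passed between marrow and non-marrow MSCs (adjusted p = 0.722 and 0.682). Id2 had the same ends, with 24.7 ± 4.72 TPM in the A-MSCs and 122 ± 18.2 TPM in the P-MSCs, and Msx2 was lowest in the A-MSCs as well (4.01 ± 0.959 TPM, against means of 22.1 to 26.6 TPM).

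**Figure D5:**
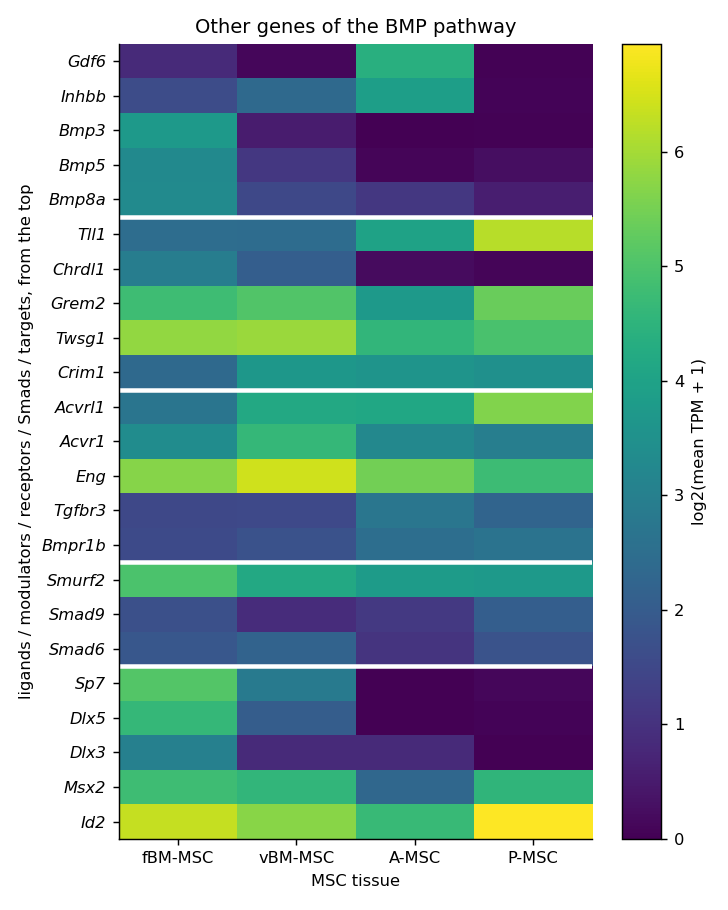
Mean level, as log2(mean TPM + 1) (colour), in the 4 tissues (columns) of the pathway genes with the largest range of tissue means in each list (rows, the lists parted by white lines in the order ligands, modulators, receptors, Smads, targets). Bmp3, Bmp5, Bmp8a, Sp7, Dlx5 and Dlx3 had their highest mean in fBM-MSCs, Gdf6 in A-MSCs and Tll1 in P-MSCs.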

How the data were processed

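RNA-seq libraries (Smart-seq2, polyadenylated RNA, without strand or molecular identifiers) and ATAC-seq were analysed. The authors aligned RNA-seq reads to mm10 with STAR in RSEM and deposited, for each gene, an expected count, which is not normalized, and a TPM, scaled by length and to a fixed sum. For ATAC-seq the authors trimmed with TrimGalore, aligned with Bowtie, removed duplicates with Picard, shifted reads for Tn5, and called summits with MACS2 on pooled samples (6 sequencing samples per tissue, by their titles 3 replicates in 2 runs each). The deposited lists give each summit's fold enrichment over the genome-wide background, a ratio, and its −log10 q. Tool versions are not given in the sources used here. The RNA of the third vBM-MSC replicate is not analysed here, while the pooled vBM-MSC peak list includes that replicate per the labels.

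After rounding of the expected counts, 1 model by tissue was fitted to all 11 libraries in edgeR 4.0.16 under R 4.3.3, with TMM scaling and the two-sided quasi-likelihood test. Benjamini-Hochberg adjustment ran over the 12509 genes that reached a CPM of 1 in 2 or more libraries. The labels do not say which libraries share a mouse, and libraries were treated as independent. Errors of means are SDs, those of fitted differences SEs. A fold against a group without counts used a floor of 3 counts over the group. DESeq2 1.42.0, limma 3.58.1 (log2(TPM + 1) and log2(TPM + 0.1)) and other settings were tried as alternatives. Scripts were tested on simulated data. Summits were placed against curated RefSeq transcripts (GRCm38, the same chromosome lengths as mm10) on chromosomes 1 to 19, at a −log10 q of at least 7; summits of several tissues within 500 bp were joined into a region. Promoter sequences were held for 5 of the 9 members (RefSeq GRCm38.p6). Computations used Python 3.11.15, pandas 2.3.3, numpy 2.4.6, scipy 1.17.1 and matplotlib 3.10.9.

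The members and gene lists were chosen with earlier results of these data known. All members are named. Of each pathway list, at most 5 genes are named, those that passed among the 4 tissues with the largest range of tissue means on the log2 scale, besides genes named for their role. The 3 most similar genes to each member are those with the highest r. The motifs and the 20-fold limit for printed windows were chosen after the values were seen. One gene that the naming rule covers is counted in its list and is not reported here.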

Additional observations from a re-analysis of the deposited data

How the results depend on the processing

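Of 72 fitted comparisons of a member, 1222 of the 1289 values under the alternatives kept their direction and side of the threshold, 29 lost the call, 27 gained it and 11 changed sign, all of which were uncalled. A stricter filter (CPM of at least 5) left only 4 members to test (not Bmp4, Bmp6, Bmp7, Nog or Chrd) and so gave 2 calls between bone marrow and non-bone marrow, 2 for fBM- against P-MSCs and 3 for A- against P-MSCs. Between fBM- and vBM-MSCs, DESeq2 and limma-trend with a pseudocount of 1 each called 4 members and the 2 tissues alone 1 (305 of all genes, against 1601). Leaving out 1 library gave 5 to 6 calls among the 4 tissues, 3 to 4 between bone marrow and non-bone marrow, 1 to 3 for fBM- against vBM-MSCs, 4 to 6 for fBM- against A-MSCs, 3 to 5 for fBM- against P-MSCs, 1 to 4 for vBM- against A-MSCs, 4 to 5 for vBM- against P-MSCs and 3 to 5 for A- against P-MSCs. Where leaving out 1 library changed a sign, the log2 differences ranged, for fBM- against vBM-MSCs, from -0.75 to 0.06 in Bmp4, from -0.85 to 0.14 in Bmp6, from -0.12 to 1.30 in Nog and from -0.46 to 0.61 in Chrd. They ranged from -0.21 to 0.79 in Bmp6 for fBM- against A-MSCs, from -0.26 to 0.13 in Grem1 and -0.62 to 0.01 in Nog for fBM- against P-MSCs, and from -0.16 to 0.92 in Chrd for vBM- against A-MSCs. The cause was not tested.

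Deviations from the tissue mean correlated at -0.028 to 0.125 in 15 same-numbered pairs of libraries, and only 1 was over 0.1. Such values cannot decide whether same-numbered libraries share a mouse. The vBM-MSC deviations are mirror images of each other, so pairs with them say less. With the replicate number as a block, Chrd changed sign for fBM- against vBM-MSCs (0.11), Grem1 lost its call for vBM- against A-MSCs, Nog lost its call for A- against P-MSCs, and Fst gained one for vBM- against A-MSCs (0.71).

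With every deposited summit the loci held 69, 62, 95 and 91 summits in fBM-, vBM-, A- and P-MSCs. At a −log10 q of at least 20 they held 9, 7, 18 and 20 in fBM-, vBM-, A- and P-MSCs, and 0, 1, 3 and 3 promoters. Within 50 kb of the genes they held 63, 55, 95 and 85. The members near 1 TPM rested on few counts per library (18 to 72 for Bmp6, 0 to 207 for Bmp7, 4 to 85 for Nog and 29 to 153 for Chrd), and the part of depth in their calls was not tested.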

Other observations

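Activins share type II receptors with BMPs and are bound by follistatin. Inhba, the gene of the activin A subunit, had more TPM than the 4 BMP ligands together in every library, and averaged 376 ± 167 TPM (SD, n = 3) in the fBM-MSCs, 581 ± 88.3 TPM (n = 2) in the vBM-MSCs, 586 ± 79.7 TPM (n = 3) in the A-MSCs and 248 ± 4.04 TPM (n = 3) in the P-MSCs. It differed among the 4 tissues (adjusted p = 0.00299, edgeR), while its difference between marrow and non-marrow MSCs did not pass (adjusted p = 0.227). The 2 tissues with the highest mean of Inhba, the A- and vBM-MSCs, were also those with the highest means of Fst. The follistatin-like genes Fstl1 and Fstl3 differed among the tissues as well (adjusted p = 1.07e-05 and 0.0305), with Fstl1 highest in the vBM-MSCs (404 ± 26.8 TPM) and lowest in the fBM-MSCs (177 ± 12.1 TPM), the same ends as Fst.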
